A study of Mus musculus with 16 samples.

Results

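Of 347712 regions covered by an ATAC-seq peak on chromosomes 1 to 19 of mouse pancreatic islets, 300 had a peak in nearly all samples of the classical inbred strains and in nearly none of the wild-derived strains. These regions were chosen by their peak calls. Overlapping peaks of the 16 deposited sample lists were merged, and a region was kept when at least 8 of the 10 classical samples and at most 1 of the 6 wild-derived samples had a peak in it. The 300 members were 0.0863% of all regions and 0.483% of the 62058 regions with a peak in at least 8 classical samples. Of these 62058 regions, 55931 also had a peak in at least 5 wild-derived samples and are called shared regions here.

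ATAC-seq marks open chromatin by the places where a transposase can insert sequencing adapters. Islets were profiled from 8 founder strains of the Diversity Outbred mice, with 1 female and 1 male sample per strain and 50 islets per sample. The classical strains were 129S1_SvImJ (129), A_J (AJ), C57BL/6J (B6), NOD_ShiLtJ (NOD) and NZO_HlLtJ (NZO), and the wild-derived strains were CAST_EiJ (CAST), PWK_PhJ (PWK) and WSB_EiJ (WSB). No treatment and no engineered allele was named for any group, and ages were not given in the sources used here. The 2 samples of a strain differ in sex, so that within-strain spread and sex cannot be told apart in a single strain. In bulk islets, fewer cells with an open region and less open chromatin per cell cannot be told apart.

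Classical inbred strains descend from a small pool of fancy mice, mostly of Mus musculus domesticus ancestry. CAST, PWK and WSB were each founded from wild-caught mice, of castaneus, musculus and domesticus ancestry in turn. The peaks used here rest on reads aligned to the mm10 assembly, which is the genome of B6. A region that another strain lacks or carries in a different form is therefore seen only through the B6 sequence. The study also aligned its reads to individualized strain genomes, reported small differences in alignment on average, and kept the reference alignments. Retrotransposons and receptor gene clusters are known as parts of the mouse genome that vary much between strains.

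The 10 strongest members with a peak in all 10 classical and 0 wild-derived samples were ranked by their classical signal. Of these, 8 are shown here as 300-base windows around the median summit, so that their reference sequence can be read. No wild-derived sequence was compared. The sequences are from the + strand of the RefSeq copy of mm10, and capitals mark matches, on either strand, to 13 motifs spelled out further on. The windows at Mpp7 and Pstpip2, which were also among the 10 and had stronger signal than most of the 8, are not printed here. Each line gives the nearest gene and the position of the window.
Gm13710, chr2:84506279-84506578: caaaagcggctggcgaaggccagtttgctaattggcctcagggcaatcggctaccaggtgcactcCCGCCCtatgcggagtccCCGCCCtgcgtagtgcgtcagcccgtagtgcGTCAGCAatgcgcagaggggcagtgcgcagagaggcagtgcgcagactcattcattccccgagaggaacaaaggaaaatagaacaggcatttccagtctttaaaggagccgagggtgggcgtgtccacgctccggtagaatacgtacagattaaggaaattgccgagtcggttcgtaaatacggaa
Gm25956, chr7:54185802-54186101: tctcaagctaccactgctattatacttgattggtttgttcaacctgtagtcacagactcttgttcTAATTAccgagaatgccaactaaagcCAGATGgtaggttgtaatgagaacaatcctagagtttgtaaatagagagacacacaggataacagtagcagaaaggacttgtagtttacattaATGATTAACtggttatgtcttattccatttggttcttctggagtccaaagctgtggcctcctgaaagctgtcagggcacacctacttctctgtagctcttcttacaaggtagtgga
Tcaf3, chr6:42581553-42581852: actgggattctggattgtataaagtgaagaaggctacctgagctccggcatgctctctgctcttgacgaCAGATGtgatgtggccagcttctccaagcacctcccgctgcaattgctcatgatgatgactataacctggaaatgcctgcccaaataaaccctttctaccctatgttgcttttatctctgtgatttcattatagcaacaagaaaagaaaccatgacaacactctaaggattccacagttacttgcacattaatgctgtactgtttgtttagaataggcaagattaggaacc
Endod1, chr9:14374430-14374729: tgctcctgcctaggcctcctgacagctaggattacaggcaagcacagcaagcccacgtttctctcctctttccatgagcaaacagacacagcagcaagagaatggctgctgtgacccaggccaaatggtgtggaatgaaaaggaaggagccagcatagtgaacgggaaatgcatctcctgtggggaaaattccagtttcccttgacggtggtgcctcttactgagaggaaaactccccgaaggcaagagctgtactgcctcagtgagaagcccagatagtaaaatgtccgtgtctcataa
Gm15942, chr15:37715513-37715812: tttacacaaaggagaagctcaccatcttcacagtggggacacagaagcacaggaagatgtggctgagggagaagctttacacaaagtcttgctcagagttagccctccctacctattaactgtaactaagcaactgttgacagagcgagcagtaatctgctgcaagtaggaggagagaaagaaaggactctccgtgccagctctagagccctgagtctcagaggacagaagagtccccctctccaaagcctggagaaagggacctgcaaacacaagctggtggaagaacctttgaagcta
AC122363.1, chr19:48804613-48804912: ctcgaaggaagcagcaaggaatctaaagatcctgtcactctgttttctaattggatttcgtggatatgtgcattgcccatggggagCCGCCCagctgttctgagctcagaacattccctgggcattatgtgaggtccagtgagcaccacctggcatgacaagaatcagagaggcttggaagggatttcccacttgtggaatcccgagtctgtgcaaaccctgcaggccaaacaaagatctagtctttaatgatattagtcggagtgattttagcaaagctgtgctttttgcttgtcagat
Gm29137, chr3:21344546-21344845: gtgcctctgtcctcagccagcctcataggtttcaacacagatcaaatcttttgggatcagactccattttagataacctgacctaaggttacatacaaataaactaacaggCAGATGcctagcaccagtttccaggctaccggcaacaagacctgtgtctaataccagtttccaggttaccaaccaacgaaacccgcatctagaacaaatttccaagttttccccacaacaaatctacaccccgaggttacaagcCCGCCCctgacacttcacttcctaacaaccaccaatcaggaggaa
Gm6821, chr3:88381987-88382286: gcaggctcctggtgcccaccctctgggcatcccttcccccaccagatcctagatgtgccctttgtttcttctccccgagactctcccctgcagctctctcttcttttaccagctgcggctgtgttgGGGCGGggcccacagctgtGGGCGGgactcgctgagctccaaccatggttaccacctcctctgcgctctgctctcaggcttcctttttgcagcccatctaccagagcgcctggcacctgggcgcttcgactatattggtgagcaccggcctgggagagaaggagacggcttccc

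The Gm13710 window was repeat-masked over 100% of its length and held 2 SP/KLF matches and 1 MAF half-site match. The Gm25956 window held 1 match each to the homeobox, NeuroD and HNF1 motifs, and the Tcaf3 window held 1 NeuroD match. The Gm6821 window held 2 SP/KLF matches close to the start of an unprocessed pseudogene. No motif of the set was found in the Endod1 and Gm15942 windows.

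The lists held between 77887 (AJ male) and 167051 (WSB female) peaks on these chromosomes. The wild-derived lists were long, at 121407 to 167051 peaks, against 77887 to 141307 in the classical samples. At the same settings the reverse rule, at least 5 wild-derived samples and at most 1 classical sample, kept 4142 regions. Whether list length had a part in this imbalance was not tested. Promoter peaks were found for 6 of 6 beta cell markers and 2 of 2 alpha cell markers in every sample, and for 0 to 3 of 7 acinar, 1 to 5 of 5 duct, 1 to 3 of 5 endothelial and 1 to 4 of 7 leukocyte markers. The WSB female library stood apart, with a peak at 86 members. Leaving out either NZO library raised the number of regions called for strain among the classical strains, as given with those tests. The NZO male had the longest list of the classical samples, at 141307 peaks.

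In the classical samples, the number of members with a peak was 221 and 280 in 129 (female and male), 279 and 240 in AJ, 242 and 237 in B6, 271 and 277 in NOD, and 279 and 239 in NZO. In the wild-derived samples it was 14 and 13 in CAST, 17 and 14 in PWK, and 86 and 10 in WSB. The female WSB sample was thus the only wild-derived sample with more than 17. The rule fixes the gap between the classes, but not its distribution among samples. All 10 classical samples had a peak at 45 members, and 27 of these had no wild-derived peak. No wild-derived sample had a peak at 146 members. The remaining 154 had 1 such peak each, whose median scaled signal was 0.104 to 0.266 in the 6 samples. At members without a peak, the median distance to the nearest peak of the same wild-derived sample was 5393.5 to 8930 bp, and 15 to 26 members per sample had one within 1 kb.

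**Figure D1:**
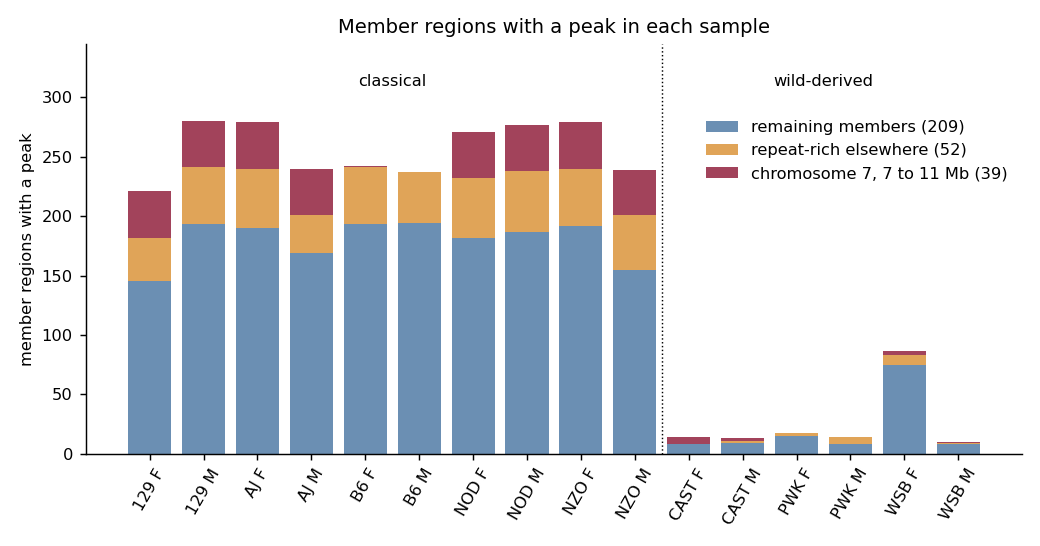
Number of the 300 member regions with a peak in each sample (F, female, M, male), stacked by 3 sets: 39 on chromosome 7 from 7 to 11 Mb, 52 others with repeat letters over more than 50% of the summit window, and 209 others. Classical samples had 221 to 280 members, the B6 samples had 1 and 0 of the 39, and the WSB female sample had 86 members against 10 to 17 in the other wild-derived samples.

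The signal of a peak is given as the deposited summit signal divided by its median, in the same sample, over the 40940 regions that all 16 lists hold. A scaled signal of 1 is therefore that of a typical common peak. Members with a peak had a median scaled signal of 0.290 (129 male) to 0.418 (AJ male) in the 10 classical samples. Shared regions had 0.731 to 0.836 in these samples. These sample medians did not overlap, and the member median was below the shared median in each of the 10 samples. Single members could lie above the shared medians, such as the Gm13710 region described below, with a median of 2.83. The deposited -log10 p of member peaks had a median of 1.75 to 3.94 in the classical samples, against 6.50 to 13.4 at shared regions. Both measures come from the peak calls that the rule used and are a description.

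**Figure D2:**
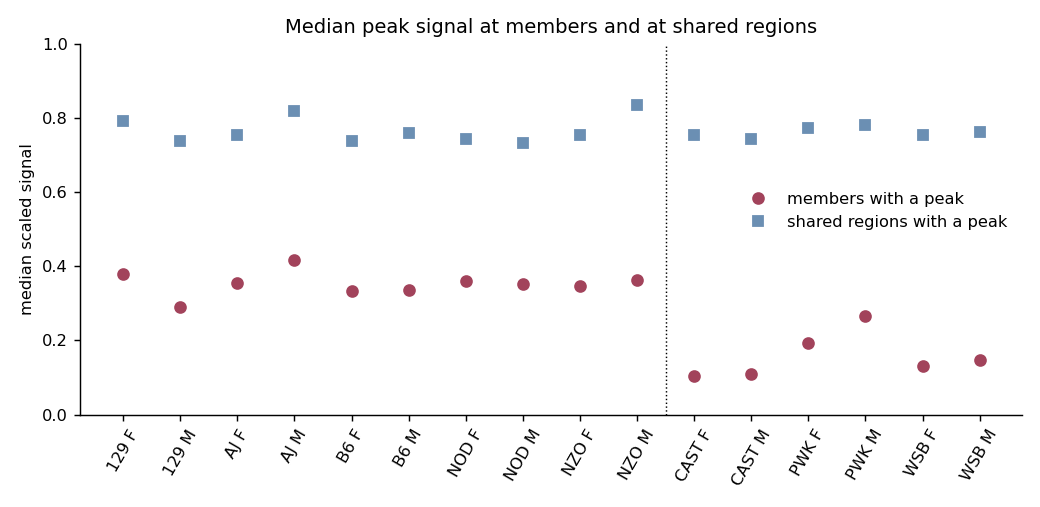
Median scaled summit signal (deposited signal over the sample's median at regions that all 16 lists hold) per sample, for members (circles) and shared regions (squares) with a peak in that sample. In the classical samples members lay at 0.290 to 0.418 and shared regions at 0.731 to 0.836.

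Just inside the thresholds, the 90 members with 8 classical peaks and 1 wild-derived peak had a median scaled signal of 0.317 in classical samples. Just outside, 226 regions with 7 classical peaks and at most 1 wild-derived peak had 0.291, and 1226 regions with at least 8 classical and 2 wild-derived peaks had 0.414. The 27 members with 10 classical peaks and 0 wild-derived peaks had 0.521.

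Membership depended on how peaks were counted. When only peaks with a -log10 p at or above the median of all peaks were used, 132 regions met the rule and only 30 of the 300 members overlapped one of them. With an equal number of strongest peaks in each sample, 851 regions met it, and 118 members were among them. Of the 10 strongest members, 9 (all but Gm6821) and 10 were kept under these settings. When a sample's peaks had to cover at least 50% of a region, 157 regions met the rule, 19 members overlapped one of them, and 4 of the 10 strongest members were kept. With a sample of WSB left out, 1369 (female) or 1314 (male) regions met the rule, all 300 members among them. Among the 62058 regions, WSB lacked a peak in both samples at 587 (0.946%), CAST at 2901 (4.67%) and PWK at 3677 (5.93%), the fewest in WSB.

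Members had a median width of 490 bp (65 to 3389 bp), against 989 bp for shared regions and 200 bp for all regions. The width spans all merged peaks, and the rules allow fewer samples with a peak at members than at shared regions. The order of these widths is therefore a description. A promoter (within 3 kb of a transcription start site, TSS) held 64 members (21.3%) against 36.8% of shared regions. Introns held 97 members, exons 16 and intergenic sequence 123 (41% against 28.3% of shared regions). The nearest TSS was that of a protein-coding gene for 129 members (43%), against 59.4% of shared regions. The median distance to it was 10308.5 bp for members and 7207 bp for shared regions. Over all 347712 regions, 21.6% lay in a promoter, 39.8% were intergenic and 46.6% had a protein-coding nearest gene, with a median distance of 12622.5 bp, so that in these measures members were close to the regions as a whole.

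Members were rich in repeats. The reference marks repeats in lower case, and 72 members (24%) had such letters over more than 50% of the 200-base window at their summit, against 2.68% of shared regions and 15.1% of all regions. To see how often the same sequence occurs in the reference, 5 words of 31 bases were taken from each window and counted on both strands. The median word occurred more than once for 87 members (29%), against 2.54% of shared regions, and more than 10 times for 39 members. The highest count was 8281. The alignment steps named in the study's methods hold no filter on mapping quality, and the part of reads with several possible origins in these peaks was not tested.

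Motif matches within the 200-base windows were read on both strands. The sites of FOXA factors (TGTTTAC), which open chromatin in endoderm and islets, were present in 10.3% of members, 6.59% of shared regions and 4.95% of all regions. The MAF half-site (TGCTGAC), read by the beta cell factor MafA and its relatives, was in 7.33%, 5.47% and 4.92%, and the RFX half-site (GTTGCCA) was in 6%, 4.91% and 3.29%. The NeuroD E-box (CAGATG) was in 19%, 20.1% and 19.6%. Of these motifs, FOXA, MAF and RFX matches were more frequent in members and NeuroD matches slightly less frequent than in shared regions. Motifs common at promoters were less frequent in members than in shared regions, but for SP/KLF, ETS and CTCF more frequent than in all regions. In the same order of members, shared regions and all regions, SP/KLF (GGGCGG) was in 10.3%, 16.8% and 5.15%. ETS (CCGGAAG) was in 2%, 3.99% and 1.31%, and CTCF core (AGNNGGCGC) in 4.33%, 6.53% and 2.17%. CREB (TGACGTCA) was in 0%, 1.18% and 0.423%, and NRF1 (GCGCATGCG) in 0%, 0.628% and 0.149%. AP-1 (TGANTCA) was in 9.67%, 13.5% and 15.2%, and homeobox (TAATTA) in 4.67%, 6.42% and 6.31%. The motif of GATA factors (AGATAAG) was in 1.33%, 2.23% and 3.04%, and the HNF1 half-site (GTTAATNAT) in 1%, 1.78% and 1.19%. A match is only a string of letters, and none of these shares was tested.

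The region at Gm13710, a long intergenic RNA gene on chromosome 2 (84506106 to 84507097, promoter), had the highest median scaled signal of the members with 10 classical and 0 wild-derived peaks, at 2.83. Its values were 2.72 and 2.93 in 129 (female and male), 1.34 and 0.873 in AJ, 2.23 and 3.29 in B6, 5.66 and 6.39 in NOD, and 2.72 and 3.29 in NZO. NOD was the highest strain and AJ the lowest, with no overlap with the other strains. Its sequence, printed first, occurred at a median of 230 places in the reference.

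The printed members that followed in strength differed in how evenly the strains shared them. At the intergenic region nearest to Gm25956, on chromosome 7 (54185424 to 54186376), the values were 1.02 and 1.91 in 129, 1.82 and 2.93 in AJ, 1.73 and 1.89 in B6, 1.58 and 2.13 in NOD, and 1.77 and 0.618 in NZO. No strain stood apart there, and its NZO and 129 samples differed among themselves as much as strains did. The intergenic region near Tcaf3, which codes for a factor associated with TRP channels, ranged from 0.810 (129 female) to 1.61 (B6 male) around a median of 1.28. The region in an intron of Endod1, an endonuclease domain gene, ranged from 0.327 (NZO male) to 1.76 (NOD female) around 1.24.

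Values spread widely at the AC122363.1 region in an exon of Sorcs3, which codes for a sorting receptor of neurons. It had 0.362 and 0.464 in 129, 0.488 and 0.458 in B6, 1.18 and 0.764 in AJ, 1.28 and 1.40 in NOD, and 1.25 and 1.00 in NZO. All samples of 129 and B6 lay below those of AJ, NOD and NZO. Strain did not pass at this region in the limma test given further on (adjusted p = 0.0572). The region in an intron of Ncald, which codes for a neuronal calcium sensor, has the antisense gene Gm15942 as its nearest gene and ranged from 0.618 to 1.47. The regions at Gm29137 (0.50 to 1.46) and Gm6821 (0.338 to 1.18) completed the 8 printed members. Beside these 8, a promoter region of Mpp7, a polarity scaffold gene, had a median of 1.82 with a range of 1.59 to 2.96 and occurred at 67 places in the reference. An exonic region of Pstpip2, which codes for an actin-binding membrane protein, had a median of 1.35 with a range of 0.509 to 2.09. The summit words of all the strongest members other than Gm13710 and Mpp7 occurred 1 time.

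**Figure D3:**
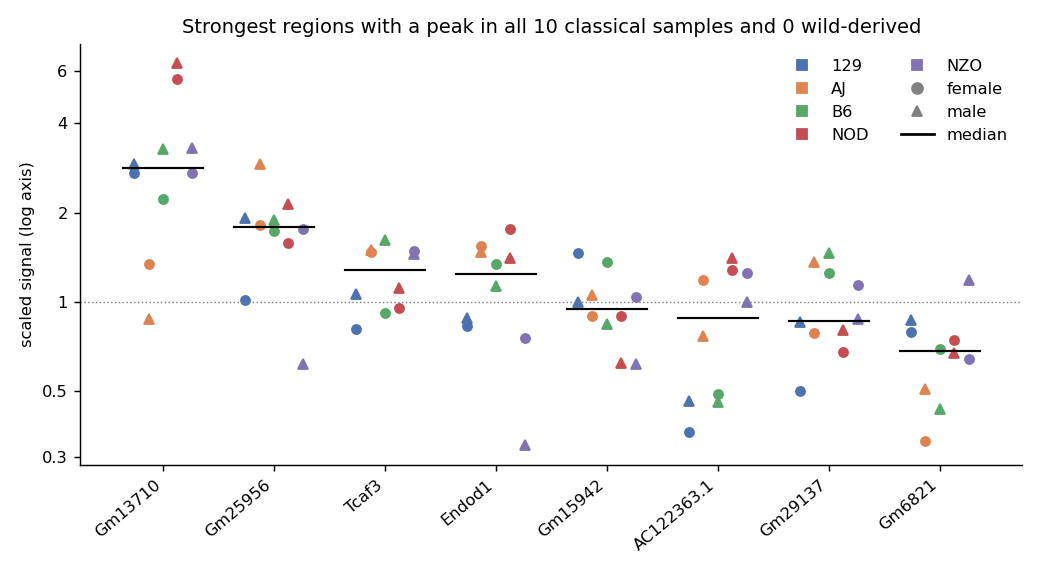
Scaled summit signal (log axis) in the 10 classical samples at 8 of the 10 strongest members with a peak in all classical and 0 wild-derived samples, in order of the median (black line). Colours mark strains, circles females and triangles males, and the dotted line marks a typical common peak (1). At Gm13710 the NOD samples (5.66 and 6.39) lay above and the AJ samples (1.34 and 0.873) below all others.

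Chromosome 7 held 45 members, 1.19% of its regions with at least 8 classical peaks, against 0.203% to 0.615% on each other autosome. Of the 45, 39 lay between 7 and 11 Mb. There, 39 of 96 regions with at least 8 classical peaks (40.6%) were members, against 0.421% elsewhere. This stretch was picked out after its count was seen, and no test was made on it. It holds 133 annotated genes, of which 86 are pseudogenes and 39 belong to the Vmn2r family. Vmn2r genes code for vomeronasal type 2 receptors, pheromone receptors of the vomeronasal organ that are known from sensory neurons and not from islets. The nearest gene was a Vmn2r gene for 25 of the 39 members, a Zfp gene for 2 and a predicted gene (Gm) for 12. All 25 members of the series nearest to a Vmn2r gene were in this stretch, whereas Vmn2r genes were nearest to 0.139% of the 62058 regions.

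These members mostly lacked a peak in B6 as well as in the wild-derived strains. Each had exactly 8 classical peaks. All of the 39 had a peak in both samples of 129, AJ and NOD and in the NZO female, and 38 in the NZO male. B6 had peaks at 1 in the female and 0 in the male, CAST 6 and 2, PWK 0 and 0, and WSB 3 and 1. The label of a region of classical strains therefore goes against the data at these members, of which 38 had peaks in 4 of the 5 classical strains only. Their median scaled signal where called was 0.335, close to the 0.354 of all members. Medians at single regions, with a missing classical peak counted as 0, were 0.145 (Vmn2r-ps43) to 0.492 (Vmn2r49). They were also repetitive: 37 of 39 had words that occur more than once, with a median of 4 places, and 20 were repeat-rich.

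Peaks in the whole stretch did not follow the same order in every strain. They numbered 342 and 230 in 129, 231 and 210 in AJ, 206 and 242 in NOD, and 280 and 379 in NZO, against 66 and 39 in B6. In the wild-derived strains they numbered 398 and 282 in CAST, 50 and 73 in PWK, and 150 and 152 in WSB. The CAST counts, not adjusted for list length, lay within or above the range of 129, AJ, NOD and NZO, but few of the CAST peaks were at members. Per 1000 peaks of each sample, CAST had 2.83 in the female and 2.09 in the male, against 2.3 to 3.78 in 129, AJ, NOD and NZO. By that measure the CAST female lay within their range and the CAST male below it. Over the next 4 Mb the classical samples had 62 to 99 peaks, with 83 and 62 in B6 and 66 to 99 in the other classical samples, and the wild-derived samples 194 to 271.

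**Figure D4:**
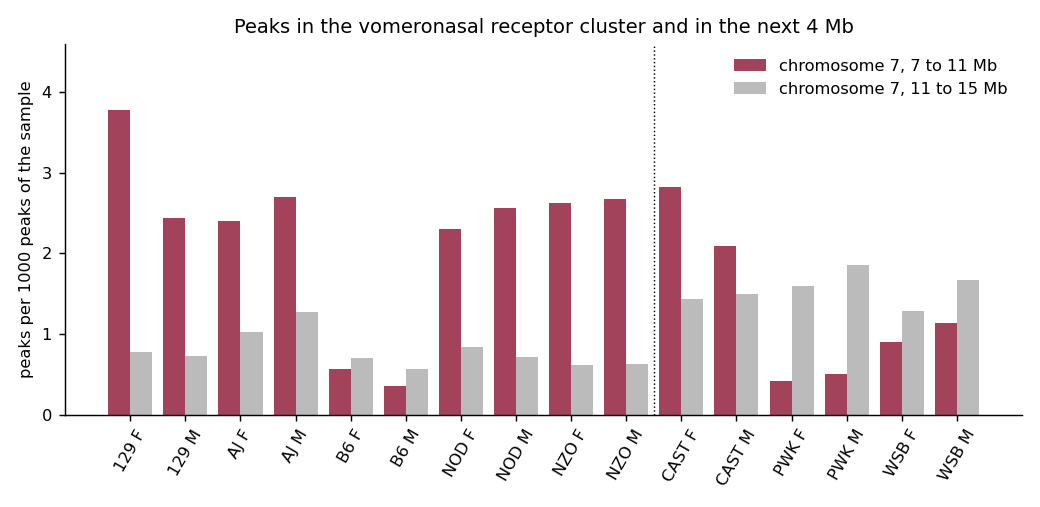
Peaks per 1000 peaks of each sample in the stretch of chromosome 7 that holds the vomeronasal receptor cluster (red, 7 to 11 Mb) and in the next 4 Mb (grey), by strain and sex. B6 (0.561 and 0.358) and PWK (0.412 and 0.50) were low in the cluster, and the other classical samples lay at 2.3 to 3.78.

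The count of members in the cluster changed with the choice of peaks. With peaks at or above the median -log10 p it held 2 members, with equal numbers of strongest peaks 16, and with the coverage condition 1. Leaving out a CAST sample raised it to 62 (female) or 60 (male).

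In these data 51 members (17%) had another member as the next region with at least 8 classical peaks, where members make up 0.483% of such regions. They formed 14 runs, and the 3 longest lay in the chromosome 7 cluster. Runs of 3 members at Vmn2r32, 3 at Gm3563 and 2 at Zfp419 also lay there, so that most of the 51 were in the cluster. The longest run held 11 members over 93.3 kb, from Vmn2r-ps52 to Vmn2r49 (9912431 to 10005762). The next held 7 members, from Vmn2r49 to Gm6850 (10016000 to 10067388), and the third 4 members, from Gm3665 to Vmn2r43 (8112000 to 8241876).

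Of the 180 members with exactly 8 classical peaks, 85 lacked 1 sample of each of 2 strains. Both missing samples were those of B6 at 50, of NZO at 14, of NOD at 13, of 129 at 12 and of AJ at 6. Among all 62058 regions, 239 had no B6 peak, so that 50 of these 239 were members. The same numbers were 14 of 358 for NZO, 13 of 341 for NOD, 12 of 392 for 129 and 6 of 1026 for AJ. Of the 50 members without a B6 peak, 38 belonged to the chromosome 7 cluster, so that this count is mostly that of the cluster. Of the same 50, 38 were not unique in the reference and 23 were repeat-rich. In the cluster, 37 of 39 members were not unique and 20 were repeat-rich. Of the 250 with a B6 peak, 49 were not unique and 49 were repeat-rich.

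Outside the cluster, 52 members were repeat-rich, and 35 of these had words found more than once, at a median of 52.5 places. Their repeat blocks were long. With gaps of up to 50 bp joined, the masked block around the summit had a median length of 2337.5 bp, against 358 bp at 1496 repeat-rich shared regions, and was over 4 kb at 23 of the 52 (44.2%) against 5.68%. A few runs, picked out after these values were seen, lay in sequence that was masked over most of its length.

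The first is the run at Gm13710 (chromosome 2, 84504451 to 84510399), of 3 members, 97% masked. In it, 305 words of 31 bases came back in the same orientation 4877 bp further on. Repeated ends in the same orientation are known from retrotransposons with long terminal repeats. No annotation of repeat families was used here, so no family is given. The second lies in an intron of Mbnl1, a splicing regulator (chromosome 3, 60489974 to 60495573), with 92.3% masked and 309 words repeated at 4877 bp. The third lies in an intron of Celf2, another splicing regulator (chromosome 2, 7404000 to 7409264), with 98.6% masked and 324 words repeated at 4926 bp.

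Signal within these runs was not even over the classical samples. The middle Celf2 member (7405148) had 2.91 and 2.96 in NOD, but 0.226 to 0.40 where the other strains had a peak, and no peak in the 129 female and AJ male. The middle Mbnl1 member (60493200) had 0.651 and 0.744 in NOD against 0.130 to 0.397 elsewhere. Strain did not pass at this Mbnl1 member in the limma test given further on (adjusted p = 0.147). NOD was thus highest at the middle member of each of these runs. Not every outer member had this order. At the first Gm13710 member (84504451) the 129 female had 2.38, the B6 male 1.83, and NOD 0.628 and 0.707.

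Few members lay near genes of known islet function, as few regions did in general. Of 11 lists, members were nearest to genes of 3, within 100 kb. Genes of insulin secretion and ion channels had 2 members (0.667%, against 0.317% of the 62058 regions). Genes associated with type 2 diabetes had 4 (1.33% against 0.363%), near Adcy5, Anks1b, Rbms1 and Thada, and stress and unfolded protein response genes had 1 (0.333% against 0.111%). Islet transcription factors, hormones and granule proteins, mouse diabetes locus genes, insulin and IGF signalling, acinar and duct, endothelial and stromal, leukocyte, and interferon and MHC genes had 0. These 8 lists took only 0.0258% to 0.213% of the 62058 regions each, so that a count of 0 among 300 members is near that share.

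The strongest of these was intergenic, 21495 bp from Creb3l2, which codes for a membrane-bound factor of the endoplasmic reticulum stress response (chromosome 6, 37463641 to 37464884). It had 4.19 and 4.81 in 129, 5.01 and 5.05 in B6, 1.65 and 0.673 in AJ, 1.35 and 0.327 in NZO, and 0.337 in the NOD female. The NOD male and all wild-derived samples had no peak. 129 and B6 lay above the other classical strains without overlap. Strain did not pass at this region in the limma fit of regions with at least 8 classical peaks, given further on (adjusted p = 0.0586). The exonic region at Adcy5, which makes cAMP in beta cells (chromosome 16, 35252800 to 35254329), had 0.145 to 0.714 in 8 classical samples, no peak in NZO, and 0.113 in the CAST female. The Cacna1d intron (chromosome 14, 30133800 to 30133999), in a gene for an L-type calcium channel subunit, had 0.205 to 0.379 in 8 samples. The Thada intron (chromosome 17, 84300553 to 84301360) had 0.190 to 0.709 in 8 samples.

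The rule compares the classes, so differences among the 5 classical strains were tested on log2(signal + 1), centred on each sample's median, with limma and a model of strain and sex. The fit took the 44878 regions with a peak in all 10 classical samples, 45 members among them, and members without a full set of values were not tested. Strain passed at an adjusted p under 0.05 for 477 of these regions (1.06%), and for 2 of the 45 members. An unadjusted p under 0.05 was found at 13 members (28.9%) and 9992 regions (22.3%).

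One is the Gm13710 region described above. NOD exceeded 129 by 1.10 and AJ differed from 129 by -1.37 on the log2(signal + 1) scale (limma, adjusted p = 0.0434). The other is intergenic, near Gm12173 (chromosome 11, 46666200 to 46666448). It had 0.50 and 0.739 in 129, 0.646 and 0.655 in AJ, 0.631 and 0.651 in B6, 0.186 and 0.268 in NOD, and 0.210 and 0.218 in NZO, with a peak of 0.294 in the CAST male. NOD and NZO lay below the others without overlap, by -1.39 and -1.44 relative to 129 (limma, adjusted p = 0.0381). Both calls were lost without centring and when any sample of 129, AJ, B6 or NOD was left out, with adjusted p up to 0.25 (Gm13710) and 0.213 (Gm12173). In those settings far fewer of all regions passed too, so that the loss was not particular to these 2 members. With the mean signal the adjusted p at Gm12173 was 0.324 (limma). Without the NZO female, 13057 regions (29.1%) and 15 members passed, and without the NZO male 1795 regions (4%) and 4 members.

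When regions with a peak in at least 8 classical samples were fitted, with missing samples left out, strain could be tested at 205 members and passed at 6, against 298 of the 59702 regions testable in that fit (0.499%). Gm12173 and Gm13710 were not among them (limma, adjusted p = 0.0581 and 0.0619). Among the 6, chosen here after their values were seen, the intergenic region near Gm42698 (chromosome 5, 44369819 to 44370559) had the smallest adjusted p, at 0.0114. It had 2.19 and 2.38 in 129, 3.02 and 3.51 in AJ and 2.44 and 2.80 in NOD, against 0.155 and 0.205 in B6. NZO was low too, with 0.284 in the female and no peak in the male. NZO therefore entered the mean of the other classical strains by its female alone at this region. It was the only member that differed between B6 and the other classical strains in that fit, by -3.08 (SE 0.242, limma, adjusted p = 0.00772), where 0.0703% of the regions were called lower in B6. The middle Celf2 member was another of the 6 (adjusted p = 0.0368).

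Sex passed for 0 of the 44878 regions (0%) and 0 of the 45 members in limma, with 1149 regions and 2 members at an unadjusted p under 0.05. B6 was higher than the mean of the other classical strains at 12 regions (0.0267%) and lower at 54 (0.12%) in limma, with 0 members in either direction. At an unadjusted p under 0.05 were 8 members (17.8%) and 4991 regions (11.1%). The median log2 difference of B6 was -0.07 over the 45 members and -0.04 over all regions. The tests do not show that members are alike in both sexes or in B6, and members without a B6 peak, such as those of the vomeronasal cluster, could not enter them.

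The peak sets that the authors made per strain, at an irreproducible discovery rate of 0.05 or less between the sexes, overlapped 39 members (13%) in 129, 48 (16%) in AJ, 77 (25.7%) in B6, 86 (28.7%) in NOD and 36 (12%) in NZO. The same sets overlapped 64.3%, 58.5%, 73.7%, 71.6% and 53.6% of the shared regions in turn. In CAST, PWK and WSB they overlapped 0 members. The rule leaves no member with a peak in both samples of these strains, so that this 0 is a description and not independent support.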

How the data were processed

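ATAC-seq libraries of islets from 8 strains and both sexes (16 samples) were used as deposited peak lists. Per the labels and the study's methods, the authors trimmed reads with cutadapt 2.0, aligned them to mm10 with Bowtie2 2.3.4.1, removed unmapped reads with SAMtools and duplicates with Picard 2.9.2, and called peaks per sample with MOSAiCS, keeping peaks under a false discovery rate of 0.05. A shift for the transposase cut was not given in the sources used here. The deposited lists hold a summit signal, a mean signal and a −log10 p per peak, and the deposited strain lists also hold a score from the irreproducible discovery rate analysis. The study gives a mean read total over the samples, but the deposited lists hold no read totals, so values were not set against the depth of each sample. Values are not counts, and no count model was used.

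Overlapping or touching peaks on chromosomes 1 to 19 were merged. A region's value in a sample is its highest summit signal, and missing peaks have no value. Genes are from GENCODE vM21, with the nearest TSS naming a region. Strain, sex and B6 contrasts were fitted with limma 3.58.1 in R 4.3.3 (pseudocount 1, Benjamini-Hochberg over all regions), after a check on simulated data. Other steps ran in Python 3.11.15. Each sex and strain has 1 sample, and p-values measure the spread between these samples.

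Named regions are the 10 strongest members with 10 classical and 0 wild-derived peaks, members called in a test (up to 5 each), up to 2 members per gene list, and the 3 longest runs. The members and lists were chosen with earlier results of these data known. Sequences are from the RefSeq copy of mm10. Alternatives were other merging, peak thresholds, list lengths, coverage, pseudocount, centring and signal, and each sample left out.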

Additional observations from a re-analysis of the deposited data

Results flagged for a closer look

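The number of members with a peak was 86 in the WSB female sample, against 10 to 17 in the other 5 wild-derived samples, a gap of 0.908 of the whole range. This sample had the longest peak list, and the part of list length in the count was not tested. It was the only value set apart from its group among 18 sets of samples examined. The rule used the same peak calls and ties the wild-derived counts to each other. No chance rate can therefore be set beside this value, which is a description.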

How the results depend on the processing

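The number of members was 132 with peaks at or above the median −log10 p, 851 with equal numbers of strongest peaks, 157 with peaks covering at least 50% of the region, and 340 to 1369 with single samples left out (1369 and 1314 without the WSB female and male). Under the first, the promoter share was 16.7% and the share with a member as neighbour 12.1%. That share was 11.8% with equal lists, 6.37% with the coverage condition, and 12.9% to 21.6% with samples left out. The promoter share was 10% within 1 kb of a TSS and 17.4% to 22.2% with samples left out. The median scaled signal was 0.507 with the mean signal, 0.806 with scaling by all peaks, and 0.346 to 0.362 with samples left out. Members called for strain numbered 0 without centring, where 54 of 44878 regions were called. They numbered 6 with regions in at least 8 classical samples, where 298 of 59702 regions were called. For B6 they numbered 1 in the latter fit, where 0.0703% of regions were called lower in B6. For sex they numbered 0 in every setting, with 0 calls over all regions too. With a sample left out, 1 strain has a single sample. Calls for strain and B6 at members then rose only without an NZO sample, as the calls over all regions did. The adjusted p for strain was 0.0107 to 0.25 at Gm13710 and 0.0108 to 0.324 at Gm12173 over 15 settings. The count in the chromosome 7 stretch, and these p values, were added after seeing the data. The causes were not tested. No paired analysis was possible because the 2 samples of a strain differ in sex, and strain is already a term of the model. With 2 samples per strain, precision is limited, and the part of read depth was not tested.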
